A study of Mus musculus with 6 samples.

Results

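Proteasome genes were examined in germinal center-like B cells with a conditional knockout (cKO) of *Eif3e* and in their controls. The members were the 48 rows of the gene count table, of 24499 rows in all, whose symbol starts with Psma, Psmb, Psmc, Psmd, Psme, Psmf or Psmg followed by a digit, together with *Pomp* and without the immunoproteasome genes *Psmb8*, *Psmb9* and *Psmb10*. The rule used symbols and no measured value. It takes in 16 genes for the core particle, 17 for the regulatory particle, 5 for activators, 6 for assembly of the core or its inhibition and 3 for assembly of the regulatory particle base. It also takes in *Psmc3ip*, whose product acts in meiotic recombination and is not a proteasome subunit.

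RNA-seq compared 3 cKO mice (*Eif3e* fl/fl, Cγ1Cre, Rosa26-YFP LSL) with 3 control mice. The labels call the latter only control, and the study's legends describe controls that carried Cγ1Cre and Rosa26-YFP LSL without the floxed *Eif3e* alleles. Cγ1Cre is made once the Ig γ1 locus is transcribed, so *Eif3e* was deleted during activation in culture and only in cells that had made Cre. Naive splenic B cells of each mouse, all on the C57BL/6J background, were cultured as iGCBs (in vitro induced germinal center B cells) for 3 days with IL-4 at 1 ng/ml, on a feeder layer irradiated at 120 Gy. The feeder is 40LB, a fibroblast line of BALB/c 3T3 origin made to express CD40L and BAFF. YFP+ cells, in which Cre had been active, were sorted, and polyadenylated RNA was sequenced. Each library came from 1 mouse, the ages were not given in the sources used here, and the general culture protocol states 4 days where the sample titles state 3.

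The proteasome is the large protease that degrades ubiquitin-tagged proteins in the cytosol and nucleus. Its core is a stack of rings: outer alpha rings form a gated entrance and inner beta rings hold the proteolytic sites. The regulatory particle binds the alpha rings, and consists of a base, whose ATPases unfold the substrate, and a lid, which removes the ubiquitin chains. Activators of the PA28 and PA200 families can bind the same end of the core and open the gate without ubiquitin recognition. B cells express, beside the standard catalytic beta subunits, the immunoproteasome subunits that take their places and favour peptides suited to MHC class I. When the proteasome is inhibited, the transcription factor encoded by *Nfe2l1* is known to raise the subunit genes together.

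Totals ranged from 39079582 to 45504570 estimated counts per library, and 13296 genes passed the filter on low counts and were tested with edgeR. *Eif3e* was at 173, 150 and 152 CPM in cKO replicates 1, 2 and 3 and at 424, 401 and 392 CPM in control replicates 1, 2 and 3, where CPM is counts scaled to a common library size (counts per 1000000). Of the B cell markers, *Ms4a1* and *Pax5* were higher in cKO, *Cd79a*, *Cd79b* and *Cd22* were lower and *Blnk* was not called, with means from 197 CPM for *Pax5* to 984 CPM for *Cd22* in cKO and from 140 CPM to 1087 CPM for the same genes in control. Of the germinal center markers, *Fas* was higher in cKO (88.5 to 94.6 CPM, against 65.4 to 74.0 CPM in control) and *Bcl6* was lower (81.3 to 86.8 CPM, against 99.9 to 110 CPM in control). The 4 plasma cell markers summed to 157 to 176 CPM in cKO and 380 to 480 CPM in control, with 3 lower (*Jchain*, *Xbp1*, *Prdm1*) and 1 higher (*Sdc1*) in cKO. The 12 fibroblast markers summed to 97.0 to 111 CPM in cKO and 59.0 to 120 CPM in control, and *Lum* was at 0 in every library. Of the 9 tested, *Fn1* and *Col5a1* were higher in cKO. The other 7 had negative log2 fold changes and were not called, and the median of the 9 was −0.39. Of the 6 T cell markers, 5 were below the filter and *Cd3e* was at 0 in every library, and *Lck* fell from between 36.3 and 39.7 CPM to between 23.3 and 25.7 CPM. The myeloid markers summed to between 9.9 and 13.6 CPM over all libraries. Of 3 tested, *Adgre1* was higher in cKO, and the other 2 had negative log2 fold changes and were not called. The part of these markers in the results that follow was not tested. In bulk RNA, fewer cells of a type and less RNA per cell cannot be told apart.

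Proteasome genes were mostly higher in cKO iGCBs, by small amounts in the core and regulatory particles and by larger amounts in some activators and assembly factors. Of the 46 members tested, 27 were higher and 2 were lower in cKO at an adjusted p under 0.05 (edgeR's quasi-likelihood test, Benjamini-Hochberg over all genes tested), and 17 were not called. That is 58.7% higher and 4.3% lower, where 24.1% of all genes tested were higher and 24.5% were lower. With a fold change over 1.5 required as well, 7 of the 46 members were higher and 0 were lower, beside 1378 (10.4%) and 1415 (10.6%) of the 13296 genes tested. The 7 were *Psme2*, *Psme2b*, *Psme3*, *Psmg3*, *Psmg2*, *Psmd14* and *Psmc5*. DESeq2 also found 0 members past both cutoffs in the lower direction, and 2 were lower in each test without the fold cutoff. In 29 of the 46 members every cKO library was above every control library, beside 3887 of the 13296 genes tested (29.2%). In 2 of the 46 every cKO library was below, beside 3918 of the 13296 (29.5%). The median log2 fold change (cKO over control) was 0.24 over the 46 members and −0.004 over all genes tested.

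**Figure D1:**
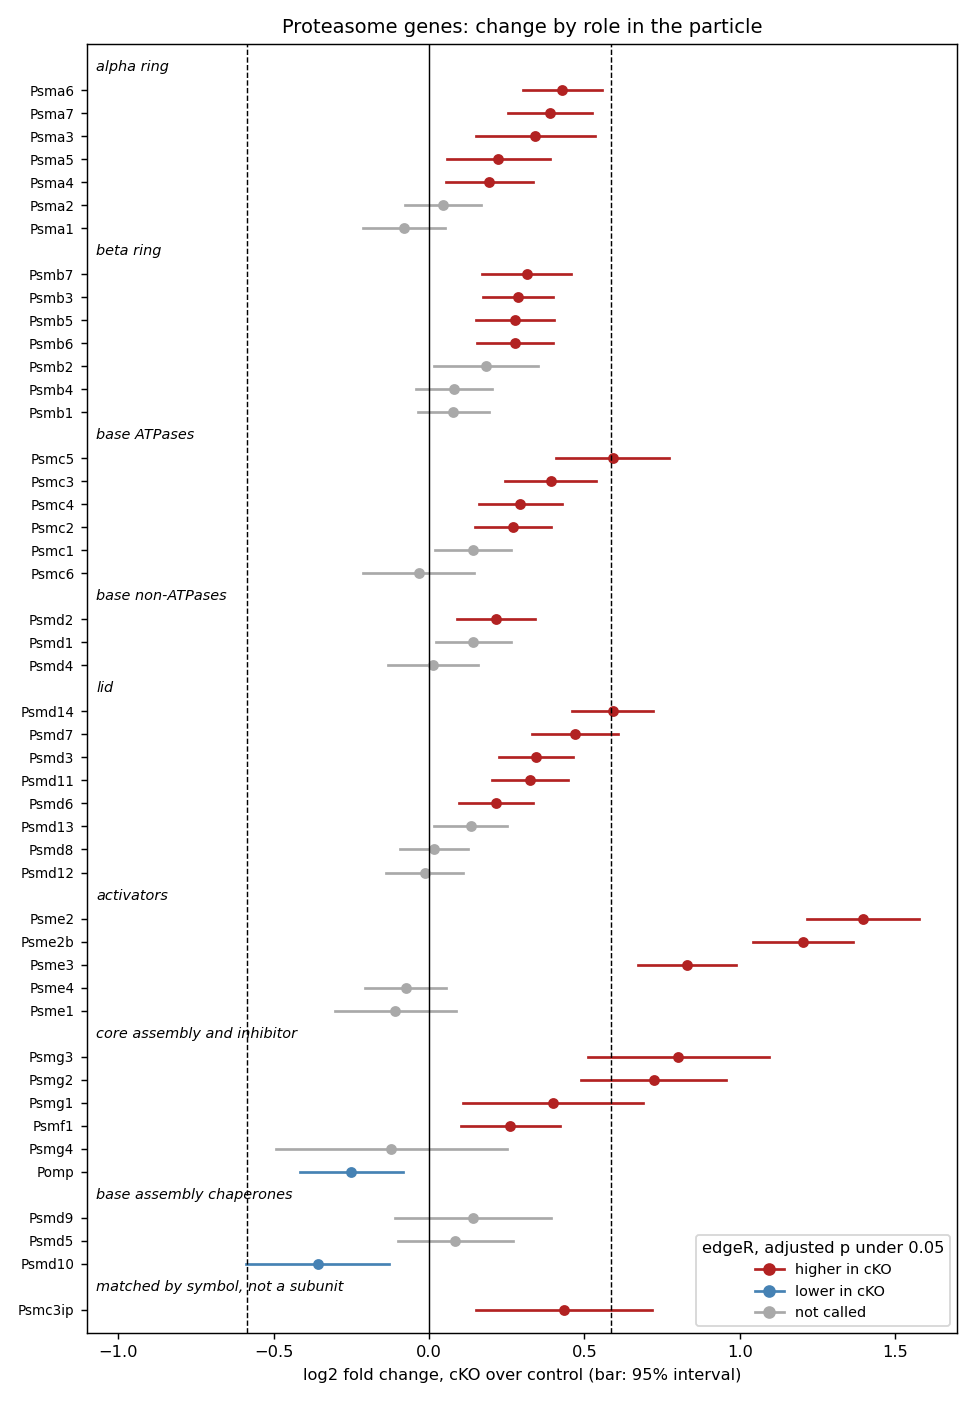
Log2 fold change of each of the 46 tested proteasome genes, cKO over control, with its 95% interval, grouped by role; colors give the edgeR call and dashed lines mark 1.5-fold in either direction. Most core, base and lid genes lie between no change and the dashed line, while *Psme2*, *Psme2b*, *Psme3*, *Psmg2* and *Psmg3* lie beyond it.

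In the alpha ring, 5 of 7 tested genes were higher and 0 were lower, with a median log2 fold change of 0.22. *Psma6*, whose product is one of the 7 subunits of the ring, rose most of the 7, from 147, 131 and 142 CPM in the control libraries to 191, 191 and 182 CPM in the cKO libraries. The groups did not overlap, and the fold was 1.35 (95% interval 1.23 to 1.47, adjusted p = 0.000167, edgeR). *Psma7*, *Psma3*, *Psma5* and *Psma4* also rose, by log2 0.39, 0.34, 0.22 and 0.19. The call of *Psma5* was lost without cKO replicate 1 or 2 or control replicate 1 or 2, with detection of *Xist* in a library as a covariate and with the replicate number as a block (log2 fold changes 0.20, 0.19, 0.19, 0.18, 0.21 and 0.23, adjusted p = 0.0872, 0.118, 0.125, 0.115, 0.0609 and 0.0537, edgeR). That of *Psma4* was lost without the same libraries and with the *Xist* covariate (log2 fold changes 0.17, 0.21, 0.21, 0.13 and 0.17, adjusted p = 0.088, 0.0603, 0.06, 0.109 and 0.0712, edgeR). *Psma5* is the only one of the 5 whose libraries overlapped, because control replicate 3 was above cKO replicate 3. *Psma1* had the lowest log2 fold change of the ring and was at 145, 150 and 147 CPM in cKO and 166, 144 and 157 CPM in control. The groups overlapped and the difference was −0.08 on the log2 scale (95% interval −0.21 to 0.05). *Psma2* was not called either, with a log2 fold change of 0.04 (95% interval −0.08 to 0.17).

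In the beta ring, 4 of 7 tested genes were higher and 0 were lower, with a median log2 fold change of 0.28. The 4 include all 3 genes for the standard catalytic subunits. *Psmb5* encodes the subunit with chymotrypsin-like activity, and was at 112, 116 and 125 CPM in cKO and 96.9, 97.4 and 96.1 CPM in control (log2 fold change 0.28, adjusted p = 0.00229, edgeR). *Psmb6*, for the caspase-like subunit, was at 105, 113 and 105 CPM in cKO and 87.2, 87.9 and 91.2 CPM in control (log2 fold change 0.28, adjusted p = 0.00193, edgeR). *Psmb7*, for the trypsin-like subunit, had the largest log2 fold change of the ring and was at 161, 165 and 153 CPM in cKO and 130, 118 and 137 CPM in control (log2 fold change 0.31, adjusted p = 0.00235, edgeR). The cKO libraries were above the control libraries in all 3 genes. Exons of *Psmb7* share 405 bases with *Nek6* on the opposite strand, and whether counting used strand was not given in the sources used here. The same limit holds for *Psmd13* (342 bases, *Sirt3*), *Psmd1* (252, *Htr2b*), *Psmc3* (215, *Slc39a13*) and *Psma4* (114, *AY074887*). It also holds for *Psma5* (60 bases, *1700010K24Rik*), *Psmd3* (17, *Gm12356*) and *Psme1* (14, *Emc9*). *Psmb3*, a structural subunit, rose by log2 0.29. The structural subunit genes *Psmb1*, *Psmb2* and *Psmb4* were not called. *Psmb1* had the smallest log2 fold change of the ring and was at 216, 220 and 214 CPM in cKO and 217, 199 and 198 CPM in control, with overlapping groups and a log2 difference of 0.08 (95% interval −0.04 to 0.19).

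The core genes made in specialised tissues were barely detected. *Psma8*, the paralog of *Psma7* known from male germ cells, had 7 counts in cKO replicate 2 and 0 in the other libraries, and was below the filter. *Psma7* itself was at 184, 203 and 188 CPM in cKO and 144, 139 and 156 CPM in control. *Psmb11*, the paralog of *Psmb5* that is known from cortical epithelial cells of the thymus, had 2, 3 and 6 counts in cKO and 0, 11 and 3 counts in control, also below the filter. The libraries of the 2 groups overlapped for both genes. A count of 0 allows up to 3 counts, which is 0.0661 to 0.0763 CPM depending on the library, and this covers counting error only.

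In the base of the regulatory particle, 4 of 6 ATPase genes were higher and 0 were lower (median log2 fold change 0.28). The ATPases form a ring that threads the substrate into the core. *Psmc5* rose most, at 134, 159 and 140 CPM in cKO against 95.7, 87.4 and 104 CPM in control. The groups did not overlap, and the fold was 1.51 (95% interval 1.33 to 1.71, adjusted p = 0.000205, edgeR), with the interval extending to either side of the 1.5-fold cutoff. Without cKO replicate 2 its log2 fold change was 0.52, and without control replicate 2 it was 0.52, both short of the cutoff. *Psmc3*, *Psmc4* and *Psmc2* rose by log2 0.39, 0.29 and 0.27. *Psmc6* was at 103, 97.4 and 88.5 CPM in cKO and 102, 87.9 and 105 CPM in control, with overlapping groups and a log2 difference of −0.03 (95% interval −0.21 to 0.14). For *Psmc1* the cKO libraries were above the control libraries, with a log2 difference of 0.14 that missed the threshold (adjusted p = 0.0556, edgeR).

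Of the 3 base subunits that are not ATPases, 1 was higher. *Psmd2*, a large scaffold that docks ubiquitin receptors and shuttle factors, was at 281, 297 and 265 CPM in cKO and 242, 233 and 250 CPM in control (fold 1.16, 95% interval 1.07 to 1.27, adjusted p = 0.00905, edgeR). The libraries did not overlap. *Psmd1*, its structural relative, had a log2 difference of 0.14 (adjusted p = 0.0529, edgeR) and shares 301 exon bases with *Gm21972* on the same strand. *Psmd4*, a ubiquitin receptor, was at 88.4, 95.1 and 98.8 CPM in cKO and 99.3, 87.9 and 92.7 CPM in control, with overlapping groups and a log2 difference of 0.01 (95% interval −0.13 to 0.16).

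In the lid, 5 of 8 genes were higher and 0 were lower, with a median log2 fold change of 0.27. *Psmd14* encodes the deubiquitinase that cuts ubiquitin chains from the substrate, and was at 147, 144 and 144 CPM in cKO and 103, 93.6 and 91.9 CPM in control. The fold was 1.51 (95% interval 1.38 to 1.65, adjusted p = 2.46e-05, edgeR) and the groups did not overlap. Without cKO replicate 1, control replicate 2 or control replicate 3 its log2 fold change was 0.58, 0.56 or 0.56, short of the fold cutoff. *Psmd7*, whose product pairs with that of *Psmd14*, had the next largest rise, at log2 0.47 (fold 1.38, 95% interval 1.26 to 1.52). *Psmd3*, *Psmd11* and *Psmd6*, which encode scaffold subunits, rose by log2 0.35, 0.32 and 0.22. *Psmd12* had the lowest log2 fold change of the lid and was at 80.9, 84.4 and 81.7 CPM in cKO and 80.6, 81.2 and 87.7 CPM in control, and the groups overlapped (log2 difference −0.01, 95% interval −0.14 to 0.11). *Psmd8* was not called (log2 difference 0.02, 95% interval −0.09 to 0.13). *Psmd13* was not called (log2 difference 0.13, adjusted p = 0.0569, edgeR).

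Over the core and regulatory particles together, 19 of 31 tested genes were higher and 0 were lower, and 28 of 31 had a positive log2 fold change. The median was 0.25 for the 14 core genes and 0.22 for the 17 regulatory particle genes. The range over all 31 genes ran from −0.08 for *Psma1* to 0.59 for *Psmd14*. Summed CPM of the alpha ring was 976 to 1040.2 in cKO and 813 to 914 in control, that of the beta ring 1022 to 1059 and 868 to 932, and that of the lid 1055 to 1099 and 893 to 924. The cKO libraries were above the control libraries in each of these sums. The values of every member in each library are drawn in the heat map of all tested members.

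**Figure D2:**
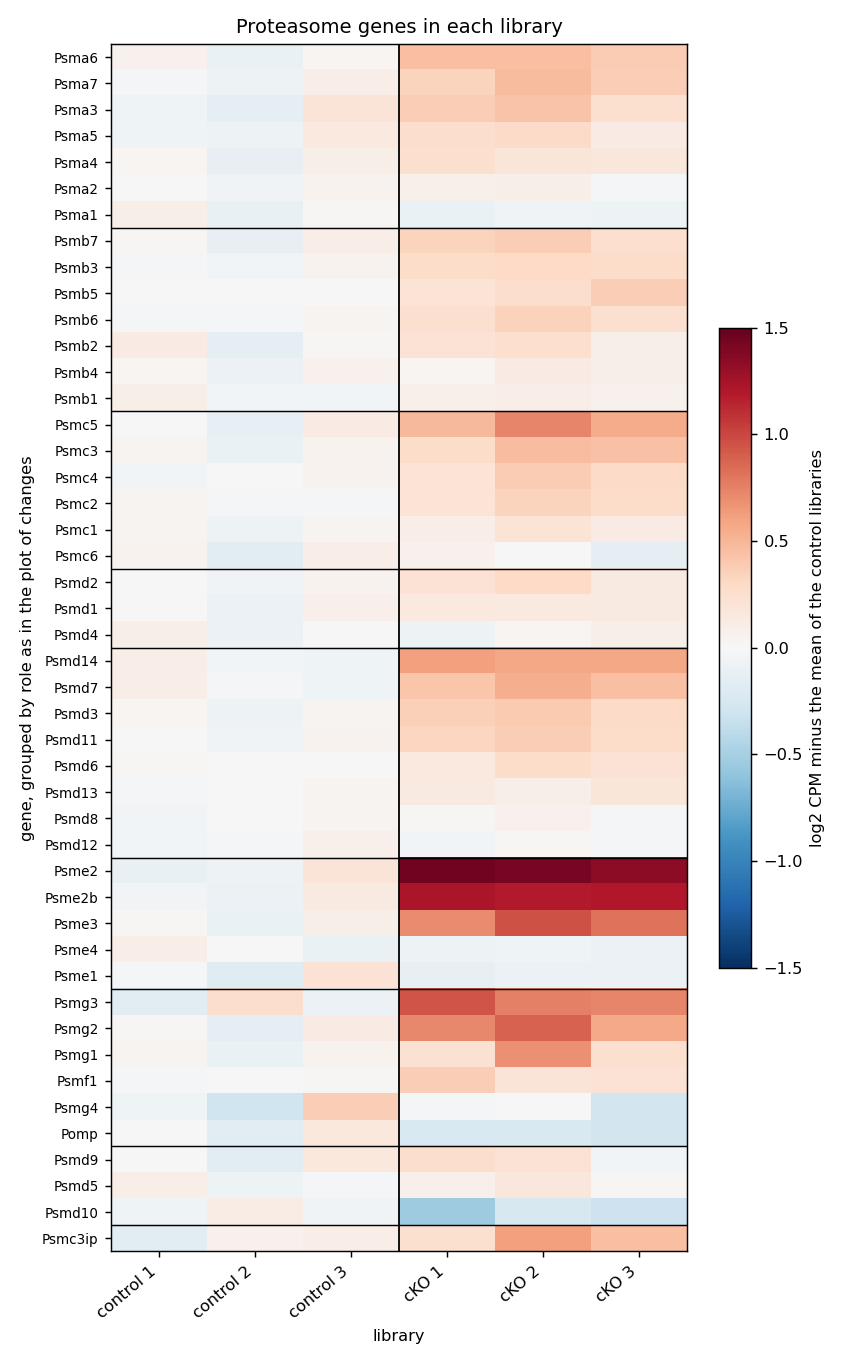
Log2 CPM of each tested proteasome gene in each library, minus the mean of the 3 control libraries; rows are genes grouped by role and columns are libraries. The cKO columns are darkest at *Psme2* and *Psme2b*, and *Pomp* and *Psmd10*, the members called lower, are blue in all 3 cKO columns.

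The largest differences among the members were in the activators. The PA28αβ ring is built from the products of *Psme1* and *Psme2*, is induced by interferon-γ in many cells, and opens the core for short peptides. PA28γ, encoded by *Psme3*, is a separate ring found mainly in the nucleus, and PA200, encoded by *Psme4*, is a single large chain. Of the 5 activator genes, 3 were higher past both cutoffs and 2 were not called.

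*Psme2* (PA28β) was at 191, 188 and 178 CPM in cKO and 64.9, 66.7 and 80.3 CPM in control. The groups were far apart, with the lowest cKO library well above the highest control library. The fold was 2.63 (95% interval 2.32 to 2.98, adjusted p = 1.58e-06, edgeR), the largest of all members. *Psme1* (PA28α), its partner in the same ring, was at 154, 159 and 159 CPM in cKO and 165, 148 and 196 CPM in control. The groups overlapped, control replicate 3 was the highest library, and the log2 difference was −0.11 (95% interval −0.30 to 0.09, adjusted p = 0.341, edgeR). *Psme1* and *Psme2* are neighbours on chromosome 14 of GRCm38, where GENCODE places them at 55578123 to 55581529 (plus strand) and 55587441 to 55591113 (minus strand). Within each library, the log2 ratio of *Psme1* to *Psme2* counts was −0.31, −0.24 and −0.17 in cKO and 1.34, 1.15 and 1.29 in control. *Psme1* had the larger count in all 3 control libraries and *Psme2* in all 3 cKO libraries. The difference of the mean ratios was −1.50 (p = 0.1, two-sided exact permutation test, the smallest p that 3 libraries against 3 allow, adjusted p = 0.117 over 7 ratios).

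*Psme3* was at 321, 380 and 347 CPM in cKO and 198, 184 and 208 CPM in control. The groups were far apart, with a fold of 1.78 (95% interval 1.59 to 1.98, adjusted p = 1.01e-05, edgeR). It lies on chromosome 11 at 101316213 to 101323537 on the plus strand. The ratio of *Psme3* to *Psme1* counts differed by 0.93 on the log2 scale without overlap (p = 0.1, exact permutation test, adjusted p = 0.117). *Psme4* was at 135, 136 and 134 CPM in cKO and 152, 141 and 133 CPM in control. The groups overlapped, and the log2 difference was −0.08 (95% interval −0.21 to 0.05). The ratio of *Psme4* to *Psme1* counts overlapped between groups (log2 difference 0.03, p = 1, exact permutation test).

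**Figure D3:**
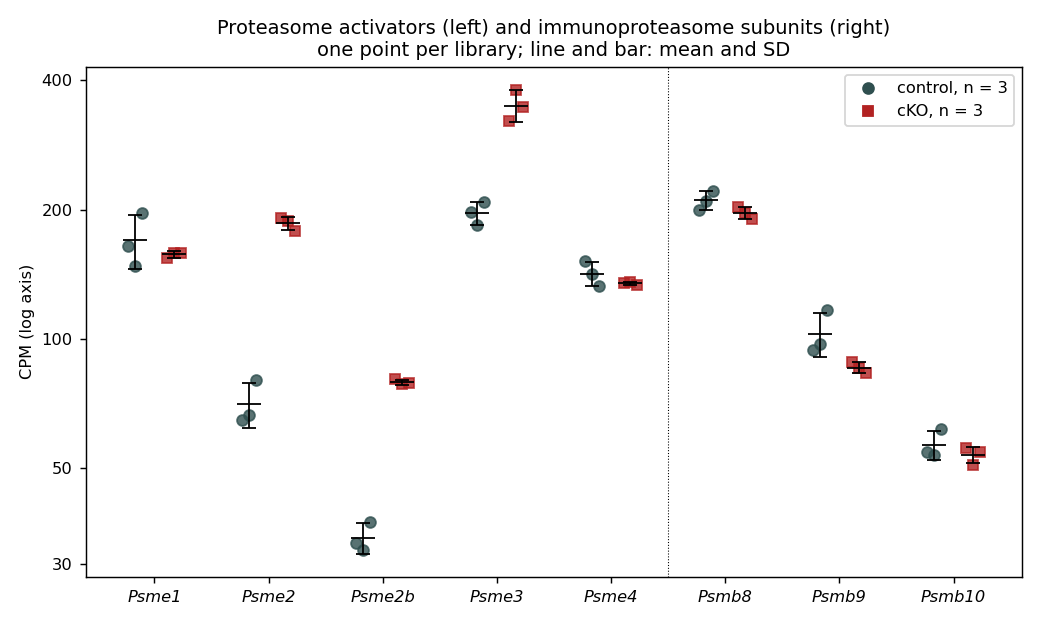
CPM of the 5 activator genes and the 3 immunoproteasome genes on a log axis, one point per library, with the mean and SD of 3 control (circles) and 3 cKO libraries (squares). *Psme2*, *Psme2b* and *Psme3* are separated between the groups and higher in cKO, *Psme1*, *Psme4*, *Psmb8* and *Psmb10* overlap, and *Psmb9* is lower in cKO.

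*Psme2b* was at 80.7, 78.4 and 78.9 CPM in cKO and 33.5, 32.3 and 37.6 CPM in control, without overlap (fold 2.30, 95% interval 2.06 to 2.57, adjusted p = 1.85e-06, edgeR). It lies on chromosome 11 at 48945354 to 48946190 on the minus strand, is annotated as a protein coding gene with 1 exon where the longest *Psme2* transcript has 11, and shares 41 exon bases with *9930111J21Rik1* on the same strand. Its transcript is nearly a copy of that of *Psme2*. Over an ungapped alignment of 794 bases the 2 transcripts differed at 5 positions, which is 99.4% identity, and 52.0% of all 100-base windows of *Psme2b* also occur in *Psme2*. The 5 differences, with the base of *Psme2* first and the position counted from the 5′ end of its 962-base transcript, are C510T, A567G, C687T, C717T and C741T. The first and the last are shown because only reads that cover one of these bases, or the ends outside the alignment, tell the genes apart. Capitals mark the differing base, which for *Psme2* is at positions 55589349 and 55588049 of chromosome 14 and for *Psme2b* at 48945807 and 48945576 of chromosome 11, all in coding sequence and on the minus strand.
Psme2, C510T: tctggccttgctCgctttggttaag
Psme2b, C510T: tctggccttgctTgctttggttaag
Psme2, C741T: ggcttccaaggaCacccatgtaatg
Psme2b, C741T: ggcttccaaggaTacccatgtaatg

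The split of counts between *Psme2* and *Psme2b* therefore rests on few bases. With both genes summed into 1 row, an alternative chosen after seeing the data, the log2 fold change was 1.34 (adjusted p = 1.19e-06, edgeR). The log2 ratio of *Psme2b* to *Psme2* was −1.25, −1.26 and −1.18 in cKO and −0.96, −1.05 and −1.09 in control, with a difference of −0.20 and no overlap (p = 0.1, exact permutation test, adjusted p = 0.117). Shared 100-base windows also made up 27.5% of *Psma5*, 24.9% of *Psmb5*, 20.7% of *Psma3*, 18.0% of *Psmb3* and 17.7% of *Psmg3*, mostly with genes that have no proteasome symbol, and at most 7.7% of the other members.

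Assembly factors of the core moved in both directions. *Psmg1* to *Psmg4* encode chaperones that build the alpha ring, *Pomp* encodes the chaperone that guides the beta ring and joins the core together, and *Psmf1* encodes PI31, a core-binding protein described as an inhibitor. Of these 6 genes, 4 were higher and 1 was lower (median log2 fold change 0.33). *Psmg3* (chromosome 5, 139823592 to 139826885, minus strand) was at 24.5, 21.6 and 21.2 CPM in cKO and 11.3, 15.3 and 12.0 CPM in control, a fold of 1.74 (95% interval 1.43 to 2.13, adjusted p = 0.000584, edgeR). It shares 280 exon bases with *Gm26938* on the same strand. *Psmg2* was at 45.4, 50.9 and 41.0 CPM in cKO and 28.1, 24.9 and 30.2 CPM in control, a fold of 1.65 (95% interval 1.40 to 1.94, adjusted p = 0.000284, edgeR). The cKO libraries were above the control libraries for both genes.

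*Psmg1*, whose product pairs with that of *Psmg2*, was at 23.7, 32.5 and 23.8 CPM in cKO and 20.8, 18.9 and 20.9 CPM in control (log2 fold change 0.40, adjusted p = 0.0268, edgeR). The groups did not overlap, and cKO replicate 2 stood above the other cKO libraries. Without cKO replicate 2 the log2 fold change was 0.23 and the call was lost (adjusted p = 0.0967, edgeR). It was also lost without control replicate 1 or control replicate 2, with log2 fold changes of 0.42 and 0.34 (adjusted p = 0.0527 and 0.0882, edgeR). *Psmg4*, whose product pairs with that of *Psmg3*, was at 14.4, 14.6 and 12.1 CPM in cKO and 14.0, 11.9 and 18.9 CPM in control, with overlap and a log2 difference of −0.12 (95% interval −0.49 to 0.25). It had 466 to 780 counts per library. *Psmf1* rose by log2 0.26, and the call was lost without cKO replicate 1 (log2 fold change 0.20, adjusted p = 0.0586, edgeR).

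*Pomp* had the lowest log2 fold change of the core assembly genes and was at 100.0, 100.0 and 97.4 CPM in cKO and 117, 106 and 131 CPM in control. The cKO libraries were below the control libraries, and the log2 fold change was −0.25 (95% interval −0.42 to −0.09, adjusted p = 0.0178, edgeR). The call was lost without cKO replicate 2, control replicate 1 or control replicate 3 (log2 fold changes of −0.26, −0.26 and −0.17, adjusted p = 0.053, 0.0535 and 0.0599, edgeR).

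Of the 3 chaperones that assemble the base ATPase ring, 0 were higher and 1 was lower by edgeR. *Psmd10*, also called gankyrin, was at 18.1, 22.0 and 21.1 CPM in cKO and 25.0, 28.3 and 25.3 CPM in control, without overlap (log2 fold change −0.36, adjusted p = 0.0158, edgeR). It is on the X chromosome, and 1 cKO and 2 control libraries had *Xist*, which marks the inactive X. With *Xist* detection as a covariate the number of members lower in cKO was again 2. The call was lost without cKO replicate 1 or control replicate 2 (log2 fold changes −0.28 and −0.31, adjusted p = 0.0605 and 0.0545, edgeR). *Psmd9* had the highest log2 fold change of these chaperones and was at 33.2, 32.1 and 26.8 CPM in cKO and 27.7, 24.7 and 31.0 CPM in control, with overlap (log2 difference 0.14, 95% interval −0.11 to 0.39). It shares 1849 exon bases with the lincRNA *Gm26745* on the opposite strand. *Psmd5* was not called (log2 difference 0.09, 95% interval −0.10 to 0.27). *Psmc3ip*, matched by its symbol alone, was at 14.9, 19.2 and 17.2 CPM in cKO and 11.3, 13.2 and 13.5 CPM in control (log2 fold change 0.43, adjusted p = 0.0164, edgeR), and shares 385 exon bases with *Mlx* on the opposite strand. Its call was lost without cKO replicate 2 or control replicate 1 (log2 fold changes 0.34 and 0.36, adjusted p = 0.0713 and 0.059, edgeR).

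Levels can be compared between genes only per length, so CPM per kb was computed. The length used was the median of the GENCODE transcripts linked to each RefSeq transcript. In control iGCBs the 14 core genes had a median of 111 CPM per kb and ranged from 32.9 for *Psma3* to 171 for *Psmb4*, a 5.20-fold range. The 7 beta ring genes lay within 1.63-fold of each other. In cKO iGCBs the median of the core genes was 127 CPM per kb. The base ATPases went from a median level of 71.7 in control to 96.0 in cKO, and the lid genes from 53.9 to 65.8 CPM per kb. Among the groups by role, leaving out *Psmc3ip*, base assembly chaperones were lowest, with medians of 10.7 CPM per kb in control and 11.8 in cKO. *Psmc3ip* was at 9.80 CPM per kb in control and 13.2 in cKO. Among activators in control, *Psme1* was highest at 153 ± 21.9 CPM per kb (SD, n = 3), and *Psme2* at 74.3 ± 8.62 and *Psme3* at 73.8 ± 4.54 CPM per kb (SD, n = 3 each) did not differ beyond their spread. *Psme2b* was at 41.2 ± 3.34 and *Psme4* at 21.9 ± 1.46 CPM per kb. In cKO the order of levels was different, with *Psme2* highest at 194 ± 7.16, then *Psme1* at 142 ± 2.39 and *Psme3* at 131 ± 11.1, *Psme2b* at 94.8 ± 1.40 and *Psme4* at 20.8 ± 0.145 CPM per kb (SD, n = 3 each). *Psme1* and *Psme3* were neighbours in that order whose means plus or minus 1 SD overlapped.

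**Figure D4:**
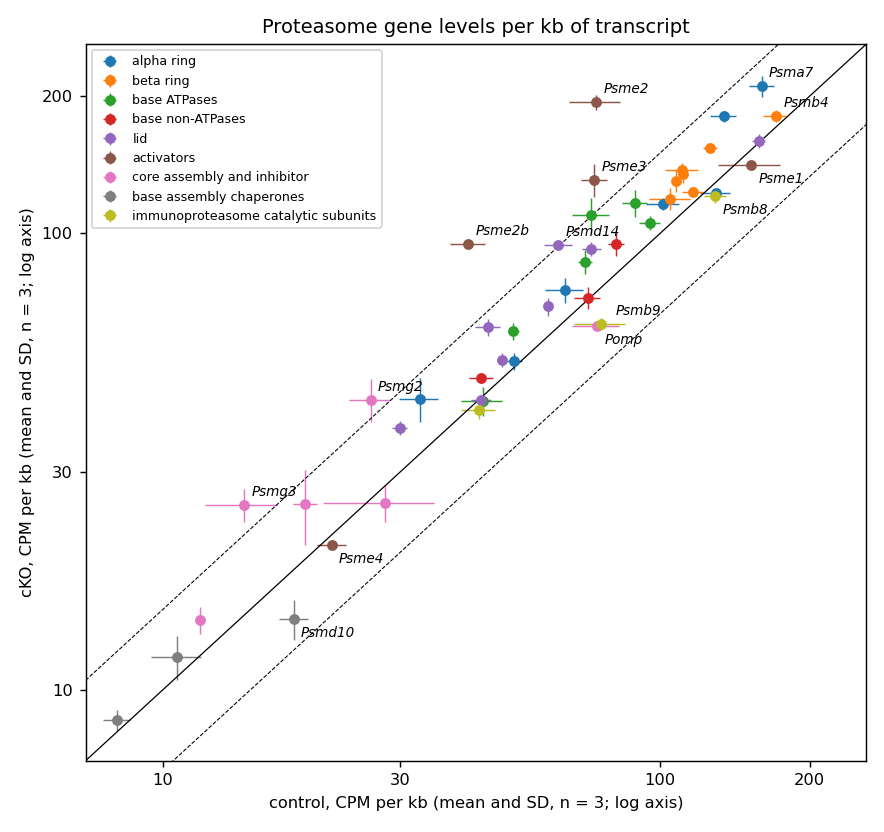
CPM per kb of transcript for each proteasome gene, control on the x axis and cKO on the y axis (log axes, mean and SD of 3 libraries), colored by role; the solid line marks equal levels and dashed lines 1.5-fold. Of the 14 core genes among the members, all but *Psma1* lie above the line of equal levels. The 3 immunoproteasome genes, drawn as well, lie below it. *Psmd5*, *Psmd9* and *Psmd10* sit low. *Psme2*, *Psme2b*, *Psme3*, *Psmg2* and *Psmg3* lie above the upper dashed line, and *Psmc5* and *Psmd14* lie just above it.

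Of the 3 immunoproteasome genes, 0 were higher and 1 was lower in cKO by edgeR, and DESeq2 gave the same counts, while all 3 standard catalytic genes were higher. *Psmb8* was at 203, 196 and 190 CPM in cKO and 200, 210 and 221 CPM in control, with overlap (log2 difference −0.10, 95% interval −0.22 to 0.02). *Psmb9* was at 88.4, 85.4 and 83.4 CPM in cKO and 94.3, 97.6 and 117 CPM in control, without overlap (log2 fold change −0.26, adjusted p = 0.0193, edgeR). That call was lost without cKO replicate 2 or cKO replicate 3 (log2 fold changes −0.26 and −0.24, adjusted p = 0.0659 and 0.055, edgeR). Without control replicate 3, the highest library, it was −0.16 and the call was kept. *Psmb10* was at 55.7, 51.1 and 54.5 CPM in cKO and 54.6, 53.7 and 61.7 CPM in control, with overlap (log2 difference −0.07, 95% interval −0.24 to 0.09).

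Each immunoproteasome gene was also set against the standard gene whose product it replaces, within the same library, which does not depend on the scaling of libraries. The log2 ratio of *Psmb8* to *Psmb5* was 0.86, 0.76 and 0.61 in cKO and 1.05, 1.11 and 1.20 in control. The ratio of *Psmb9* to *Psmb6* was −0.25, −0.40 and −0.33 in cKO and 0.11, 0.15 and 0.35 in control. The ratio of *Psmb10* to *Psmb7* was −1.53, −1.69 and −1.49 in cKO and −1.26, −1.14 and −1.15 in control. In all 3 ratios every cKO library was below every control library. The differences were −0.38, −0.53 and −0.39 (each p = 0.1, two-sided exact permutation test, adjusted p = 0.117 over 7 ratios), so the design could not pass 0.05.

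**Figure D5:**
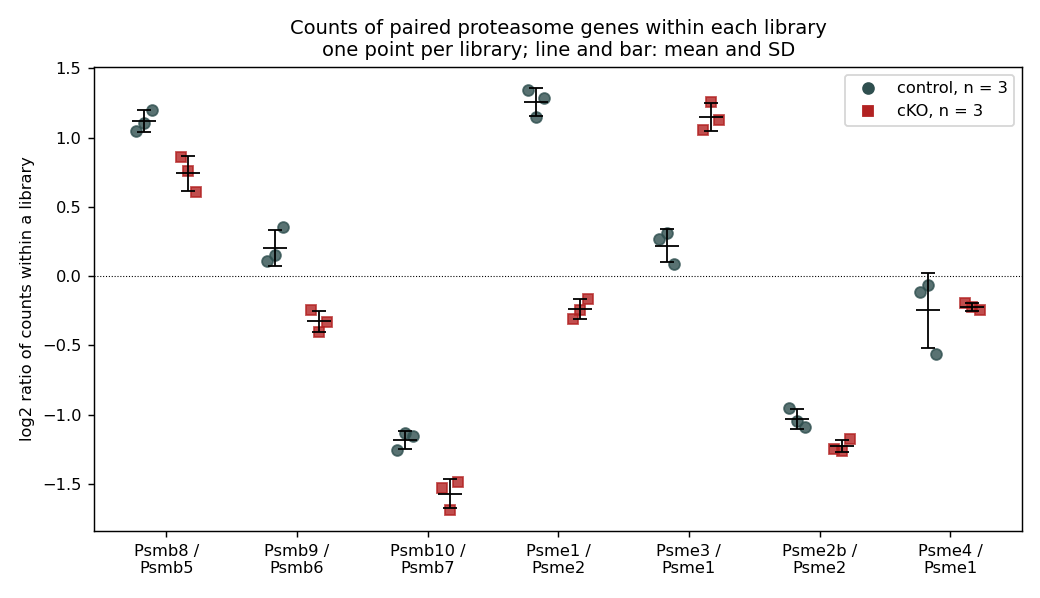
Log2 ratio of the counts of paired proteasome genes within each library, one point per library, with the mean and SD of 3 control (circles) and 3 cKO libraries (squares). The groups are separated in 6 of the 7 ratios and overlap for *Psme4* to *Psme1*. The *Psme1* to *Psme2* and *Psmb9* to *Psmb6* ratios change sign between the groups.

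The 48 genes had 58 RefSeq transcripts, of which 55 were tested, and 22 were higher and 0 were lower in cKO at an adjusted p under 0.05 (edgeR). Over all transcripts tested 12.4% were higher and 12.7% were lower. DESeq2 gave 2 lower transcripts. In 39 of the 48 genes a single transcript was listed. For *Psme2*, the transcript NM_011190 held 92.2 to 95.5% of the gene's counts in control and 98.2 to 99.2% in cKO, and it rose by log2 1.46 (adjusted p = 0.000877, edgeR). The other, NM_001029855, had 158, 116 and 63 counts in cKO and 229, 149 and 148 counts in control, before scaling for library size. It held 1.8, 1.4 and 0.8% of the gene's counts in cKO and 7.8, 5.7 and 4.5% in control. The unscaled counts overlapped between the groups and the shares did not. Its own difference was not called (log2 fold change −0.73, adjusted p = 0.24, edgeR). For *Psmd4*, NM_001282017 held 58.7, 49.7 and 54.1% of the gene's counts in cKO and 48.1, 52.4 and 39.9% in control, with overlap. Transcript use was tested in 8 member genes and called in 0 (edgeR's diffSpliceDGE), beside 1.37% of all genes tested for it. The smallest unadjusted p among the 8 was 0.0504, for *Psme2* (adjusted p = 0.76). When transcripts needed at least 10 counts in every library, 1 gene was called, which was *Psme2* (adjusted p = 0.0421, edgeR). Isoforms share reads, so these splits are estimates.

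Partners of the proteasome that have other symbols were read from a list of receptors, shuttle factors, regulators and import factors. Of the 21 partners tested, 10 were higher (47.6%) and 2 were lower (9.5%), where 24.1% of all genes tested were higher and 24.5% were lower. *Uchl5*, a deubiquitinase of the regulatory particle, was at 73.7, 74.8 and 73.6 CPM in cKO and 40.6, 40.2 and 38.7 CPM in control, without overlap (fold 1.86, adjusted p = 2.87e-06, edgeR). *Adrm1*, the ubiquitin receptor that binds and activates *Uchl5*, was at 92.5, 106 and 109 CPM in cKO and 113, 108 and 103 CPM in control, with overlap (log2 difference −0.07, 95% interval −0.23 to 0.09). *Usp14*, the other deubiquitinase bound to the base, was not called (log2 difference 0.13, 95% interval −0.03 to 0.29). *Ubqln4*, a shuttle factor, rose by log2 0.90, and *Akirin2*, which is needed to bring proteasomes into the nucleus, rose by log2 0.85. Of the transcription factors, *Nfe2l2* fell from 32.2, 33.2 and 32.9 CPM in control to 17.1, 16.8 and 21.9 CPM in cKO (log2 fold change −0.82, adjusted p = 0.00019, edgeR). *Nfe2l1* was at 121, 132 and 131 CPM in cKO and 147, 149 and 140 CPM in control, without overlap (log2 fold change −0.18, adjusted p = 0.0195, edgeR). That call was lost without cKO replicate 1 or control replicate 1 and with the *Xist* covariate (log2 fold changes −0.14, −0.17 and −0.16, adjusted p = 0.0782, 0.0536 and 0.0613, edgeR).

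Promoter sequence was available from RefSeq (GRCm38.p6) for 40 of the 48 members, as windows from 250 bases before to 50 bases after the start. Those of *Psme2* and *Psme3* are shown as examples of activator genes that rose past 1.5-fold, as the 250 bases before the start, 5′ to 3′ on the strand of the gene. The *Psme2* sequence is chr14:55591102-55591351 on the minus strand, and that of *Psme3* is chr11:101315963-101316212 on the plus strand. Capitals in *Psme3* mark an E-box (CACGTG) and, nearer the start, a CCAAT box that reads on the other strand, and *Psme2* held none of the 6 motifs searched.
Psme2 promoter: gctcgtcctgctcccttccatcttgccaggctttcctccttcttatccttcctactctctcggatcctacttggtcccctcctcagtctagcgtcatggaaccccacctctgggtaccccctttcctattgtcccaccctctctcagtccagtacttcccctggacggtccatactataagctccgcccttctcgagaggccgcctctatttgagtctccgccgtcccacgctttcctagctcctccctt
Psme3 promoter: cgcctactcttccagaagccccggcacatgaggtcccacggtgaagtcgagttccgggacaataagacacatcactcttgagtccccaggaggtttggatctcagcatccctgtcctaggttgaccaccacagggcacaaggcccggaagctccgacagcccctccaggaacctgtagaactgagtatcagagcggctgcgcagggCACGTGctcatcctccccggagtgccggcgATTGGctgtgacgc

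The 6 motifs were searched on both strands of the windows of 300 bases, and a match is a description of the letters only. GAAANNGAA, the core of an interferon-stimulated response element, was in 20.0% of the 40 members and in 8.6% of all promoters. It was in 2 of the 22 members with a promoter window that were higher in cKO and in 6 of the 18 others. One of those is *Psme1*, where it begins 11 bases after the RefSeq start. The stretch chr14:55578494-55578522 around it is shown on the plus strand with the motif in capitals as its reverse complement.
Psme1 motif: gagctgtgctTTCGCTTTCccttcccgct
GGAAGTG, a motif of ETS factors, was in 22.5% of members and 11.0% of all promoters, with 1 of the 22 higher members and 8 of the 18 others. TGACNNNGC, the core of the antioxidant response element that the *Nfe2l1* and *Nfe2l2* products bind, was in 15.0% of members and 12.4% of all promoters, and members with it were *Psmd9*, *Psme4*, *Psmb6*, *Psmd12*, *Psmc6* and *Psmb5*. CCAAT was in 35.0% and 37.4%, and CACGTG in 7.5% and 7.2%. TGACGTCA was in 0 of the 40 members and in 1.8% of all promoters. GAAANNGAA can overlap GGAAGTG. None of these shares was tested.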

How the data were processed

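RNA-seq of day 3 YFP+ iGCBs from 3 cKO and 3 control mice was analysed from 2 deposited tables, which hold estimated counts for genes and for RefSeq transcripts. The authors used adapter-trimmed, quality-filtered reads, HISAT2 alignment, StringTie quantification and prepDE to obtain the estimated counts, and the submitters' processing notes name mm10 as the build. These estimated counts are whole numbers and not normalized, so no rounding was needed. Versions, the annotation release, the read length setting and whether counting used strand were not given in the sources used here. Because prepDE turns coverage into counts, totals are not numbers of fragments, and intervals and the floor of 3 counts cover counting error only.

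A minimum count of 10 was set in filterByExpr, libraries were scaled by TMM, and genes were tested with edgeR 4.0.16 (glmQLFit, glmQLFTest, R 4.3.3) without covariates, with Benjamini-Hochberg adjustment over all genes tested. The cutoffs were an adjusted p of 0.05, alone and with a 1.5-fold change. DESeq2 1.42.0, the study's tool, was an alternative. Of 36026 transcripts, 34669 were matched to a gene through a RefSeq table of GRCm38.p6, 18040 were tested, and transcript use was tested with diffSpliceDGE in 2990 genes. Ratios were log2 of counts plus 0.5, tested with an exact permutation test over libraries (SciPy 1.17.1). Coordinates and exons are from GENCODE on GRCm38, matched by symbol. Transcripts of *Psme2* and *Psme2b* were aligned locally with Biopython 1.88.

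On simulated data for cKO against control, in which 200 of 13066 genes carried a 2-fold change, 71.5% of them were recovered by edgeR with 12 false calls, and 140 of the 155 changed genes with a mean of at least 100 counts. With 190 of 17380 transcripts changed by 2-fold it recovered 18.9% with 5 false calls. The limit set for the transcript step was chosen after its result was seen.

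The members, the role lists and the lists of partners and markers were chosen with earlier results of these data known. Named with values are members past both cutoffs, the largest and smallest change of each role list, activators, members below the filter, the paralog pairs, and set partners. That each sample came from its own mouse is stated in the design text of the series. Some listed markers and ubiquitin genes are not reported here. The sample titles do not say whether equal replicate numbers mark pairs, and the main tests treated the samples as unpaired. Alternatives were other scalings and filters, DESeq2, a test against 1.5-fold, immunoglobulin genes left out, counts divided by 2, *Xist* detection as a covariate, a block for the replicate number, and leaving out 1 library at a time.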

Additional observations from a re-analysis of the deposited data

How the results depend on the processing

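Of the 29 members called, 22 kept their direction and call under each of 16 alternatives (15 for *Psme2b*), which leave out the test against 1.5-fold given below, 7 lost the call under at least 1 of them (*Psma4*, *Psma5*, *Psmf1*, *Psmg1*, *Pomp*, *Psmd10* and *Psmc3ip*) and 0 changed direction. Of the 17 members not called, 4 were called under at least 1 of the 16. A test against 1.5-fold called 3 members, all higher (*Psme2*, *Psme2b* and *Psme3*), and 0 lower, in place of 27 higher, 7 higher past 1.5-fold and 2 lower. With the replicate number as a replicate block, 26 members were higher and 2 lower, and 11 transcripts were higher in place of 22. Deviations of same-numbered libraries from their group means had correlations of 0.009, 0.084 and 0.133, which were not set against other pairings. The sample titles do not say whether equal numbers mark pairs. With 1 library of each group per number, the block cannot move the difference of mean ratios, and the smallest p it allows there is 0.25. DESeq2 called 29 members and 31 transcripts higher and 2 transcripts lower. Requiring at least 10 counts in every library gave 1 gene with a change in transcript use.

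With each library left out in turn, 23 to 28 members were higher, 5 to 7 of them past 1.5-fold, 1 to 2 were lower, 16 to 21 transcripts were higher and 0 to 1 lower. The single lower transcript appeared without control replicate 2. Values whose sign changed were those of members that were not called. Their log2 fold changes ranged from −0.116 to 0.0232 for *Psmc6*, −0.0377 to 0.0592 for *Psmd4*, −0.0079 to 0.0401 for *Psmd8*, −0.0393 to 0.0273 for *Psmd12*, −0.205 to 0.0097 for *Psme1* and −0.27 to 0.0875 for *Psmg4*. The ratio of *Psme4* to *Psme1* ranged from −0.13 to 0.12. The other 6 ratio differences kept their sign. The cause of these moves was not tested. The median log2 fold change of all genes shifted by under 0.1 between scalings. *Psma8* and *Psmb11* had 11 or fewer counts per library and were not tested.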
